A study of Sus scrofa with 5 samples.

Results

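Primordial germ cells are the founders of eggs and sperm, and 9 genes that mark or serve them were followed here through pig embryonic stem cells (pESCs) and the blastocyst-like structures (blastoids) made from them. The genes were taken from a list chosen for their known roles: *PRDM1*, *PRDM14*, *NANOS3*, *KIT*, *KITLG*, *DDX4*, *DAZL*, *PDPN* and *CXCR4*. Of these 9, 8 had a row among the 30029 genes of the blastoid count tables and among the 29886 gene symbols of the pESC table, and *NANOS3* was not analysed here. The samples were 2 single-cell libraries of blastoids (10x Genomics droplets, day 6, iBlastoid medium, grown from porcine ESCs) and 3 bulk RNA-seq libraries of pESCs in 4FIXY medium, which contains activin A, IGF1, IL-6, the soluble IL-6 receptor and inhibitors of WNT signalling and of ROCK. Among other factors, the iBlastoid medium contains BMP4, LIF, bFGF, activin A, IGF1, IL-6 and its soluble receptor, with the small molecules CHIR99021, SB431542, TSA and DZNep. It also holds the WNT inhibitor XAV939 and a ROCK inhibitor. In the paper's improved method, cells first form clusters in 4FIXY medium without IWR1. The study derived its pESCs from parthenogenetic blastocysts. The blastoids were picked by hand for their cavity and compartments, in numbers that the labels do not give. The pESCs grew on mouse feeder cells, whose share in the bulk RNA was not tested. Neither kind of sample had an untreated or wild-type counterpart, so every test below is between cells of the same blastoid libraries. Levels set side by side between pESC libraries, or for *CXCR4* between pESCs and blastoids, were not tested.

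In pigs, as in primates, the germ cell fate is set in a few cells of the early embryo by the transcription factors SOX17, TFAP2C and PRDM1, while POU5F1 stays on. PRDM1 represses somatic programmes, and PRDM14 is a partner that also belongs to the pluripotency network of the epiblast. As germ cells form, they switch off DNMT3B, an enzyme that writes new DNA methylation. Migrating germ cells depend on the receptor tyrosine kinase KIT, whose ligand KITLG comes from the cells around them, and on the chemokine receptor CXCR4, which responds to CXCL12. PDPN is a surface glycoprotein that marks early germ cells but also many epithelial and mesenchymal cells. DDX4 and DAZL are RNA-binding proteins of later, gonadal germ cells. Since most of these genes also work elsewhere, cells were classed by *POU5F1*, *TFAP2C* and *DNMT3B* together, and *SOX17* was followed as a further marker. *TFAP2C* was also listed here as a marker of trophectoderm, and it was found in 54.3% and 53.2% of cells of blastoid libraries 1 and 2. These classes therefore do not by themselves identify germ cells.

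A barcode counted as a cell when its UMIs (counted molecules) reached 11223 in library 1 and 9807 in library 2, which left 7369 and 8175 cells, with medians of 29728 and 27588 UMIs. They held 87.8% and 87.7% of all UMIs, and 9 cell barcodes occurred in both libraries. Free RNA was measured in the 118122 and 165131 droplets of 10 to 100 UMIs. Doublet scores marked 5.89% and 6.54% of cells, although the caller's own threshold marked only 1 and 0, and these cells were kept. Levels in blastoids are UMIs of a gene per 1000000 UMIs of a group of cells (CPM). The labels do not say whether the 2 libraries came from separate cultures, so p-values measure only the spread between these samples.

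In pESCs, 5 of the 8 genes with a row reached at least 1 FPKM in all 3 libraries, against 37% of all genes. *PRDM14* stood highest, with 65.1, 75.4 and 57 FPKM in the libraries IVFP25, PA_4P7 and PAP25 (mean 65.8 ± 9.22, SD, n = 3). The labels do not explain these names, so the libraries may differ in embryo origin and passage, which the SD would then include. *KIT* followed at 29.2, 63.7 and 58.2 FPKM (50.4 ± 18.5), and its range overlapped with that of *PRDM14*. *PDPN* gave 25.9, 27.1 and 22.1 FPKM (25 ± 2.62), below every *KIT* value. *CXCR4* gave 5.99, 10 and 17 FPKM (11 ± 5.54), and *KITLG*, the ligand of KIT, 2.19, 3.26 and 1.76 FPKM (2.4 ± 0.769). These ranges did not overlap with their neighbours, whereas *KITLG* and *PRDM1* could not be ordered. *PRDM1* gave 0.309, 0.625 and 2.11 FPKM, so that it passed 1 FPKM only in PAP25. *SOX17* also was highest in that library, with 1.73, 1.82 and 26.1 FPKM, and *CXCR4* was highest there too. Other genes went the other way: *TFAP2C* was lowest in PAP25, with 4.8, 8.2 and 3.61 FPKM, as were *PRDM14*, *PDPN* and *KITLG*. Without PAP25 the mean fell from 1.02 to 0.467 FPKM for *PRDM1* and from 11 to 8.01 FPKM for *CXCR4*. The gonadal genes were at the bottom: *DDX4* was listed at 0.0191, 0 and 0.0289 FPKM and *DAZL* at 0, 0.0222 and 0 FPKM. In bulk RNA, fewer cells of a type and less RNA per cell cannot be told apart, and the depth of these libraries is unknown. The gate genes were at 526 ± 105 FPKM for *POU5F1*, 702 ± 119 for *DNMT3B* and 5.53 ± 2.38 for *TFAP2C*.

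**Figure D1:**
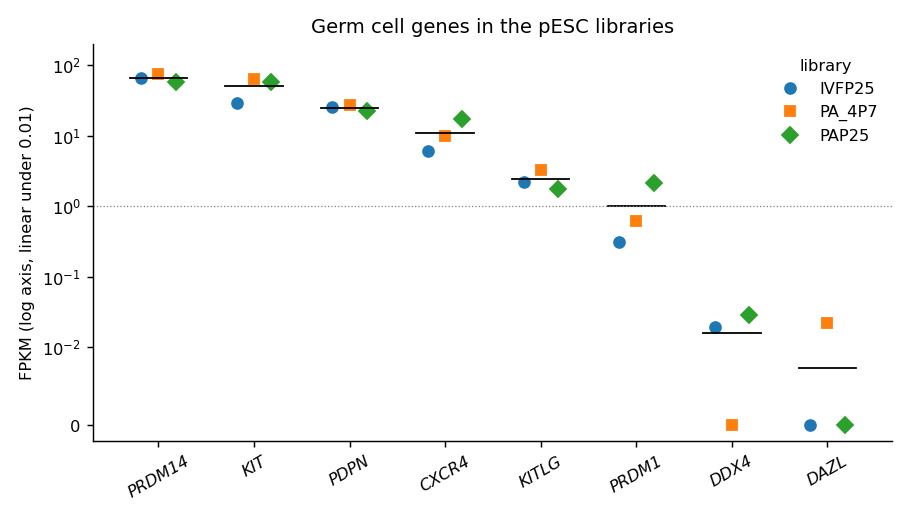
FPKM of each gene in the 3 pESC libraries (points) with the mean (line), on a log axis that is linear under 0.01 FPKM; the dotted line marks 1 FPKM. *PRDM14*, *KIT*, *PDPN*, *CXCR4* and *KITLG* lie above the line in every library, *PRDM1* only in PAP25, and *DDX4* and *DAZL* stay under 0.03 FPKM.

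In blastoids, *KIT*, *PDPN* and *PRDM1* were widely detected, *KITLG* and *PRDM14* in fewer cells, and the gonadal genes in hardly any. At least 1 UMI of *KIT* was found in 66.4% (exact 95% binomial interval 65.3 to 67.5%) and 67.9% (66.9 to 68.9%) of cells of libraries 1 and 2, and of *PRDM1* in 47.6% (46.4 to 48.7%) and 48.5% (47.4 to 49.6%). *PDPN* was found in 59.1% and 61.1% of cells, *KITLG* in 27.6% and 26.2%, and *PRDM14* in 7.38% and 8%. These intervals cover counting error only, and shares of this kind follow depth. After each cell was thinned to 9807 UMIs, the shares were 43.2% and 45.3% for *KIT*, 21.4% and 22.6% for *PRDM1*, 32.4% and 35.4% for *PDPN*, 11.3% and 11.4% for *KITLG* and 2.74% and 3.14% for *PRDM14*. *DAZL* had 0 UMIs in all 15544 cells, which allows a share of up to 0.0193% of cells with a UMI. *DDX4* had 138 UMIs in 108 cells of library 1 and 115 UMIs in 110 cells of library 2, or 1.47% and 1.35% of cells.

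Free RNA carried most of these genes as well. Empty droplets held *KIT* at 48.2 and 49.5 CPM, against 95.1 and 98.2 CPM in cells, and *PRDM1* at 16.5 and 16.6 CPM against 28 and 30.4. *PDPN* stood at 27.4 and 43.9 CPM in empty droplets against 62.1 and 75.5 in cells. For these 3 genes, the cells lay above the exact Poisson intervals of the droplets in both libraries. *KITLG* at 15 and 14.2 CPM in cells fell within the droplets' intervals of 6.51 to 17.3 and 8.63 to 18.3 CPM, as *DDX4* did, and *PRDM14* at 3.99 and 4.28 CPM did too, on 3 and 5 droplet UMIs. The gate gene *POU5F1* was at 63.3 and 95.9 CPM in cells and at 54.9 and 97.3 CPM in droplets, and *TFAP2C*, the other gene of the double positive gate, at 40.8 and 40.1 CPM in cells and at 48.2 and 44.4 CPM in droplets. For both genes the cells lay within the droplets' intervals in both libraries. These were 44.1 to 67.5 and 85 to 111 CPM for *POU5F1*, and 38.1 to 60 and 36.2 to 53.8 CPM for *TFAP2C*. CPM compares the make-up of the RNA and does not say how much free RNA a cell took up. In all, the 118122 and 165131 droplets held 90 and 228 UMIs of *POU5F1* and 79 and 104 of *TFAP2C*. How many of the single UMIs in cells were free RNA was not tested. Shares also differed between clusters of cells. The lowest were 13.4% for *PRDM1* and 1.19% for *PRDM14* (both in cluster 10, median depths 26032.5 and 25931 UMIs), 33.2% for *KIT* and 39.1% for *PDPN* (both in cluster 7, 24635 and 20431 UMIs) and 10.4% for *KITLG* (cluster 9, 21355.5 and 18179 UMIs).

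*CXCR4* was all but missing in blastoid cells, with 33 UMIs in 33 cells of library 1 and 28 UMIs in 27 cells of library 2 (0.13 and 0.106 CPM), while pESCs held it at 11 FPKM on average, on another scale. The paper does not say which end of a transcript its droplet kit reads. In a 3′ library, the counted reads lie near the 3′ end. The annotated pig transcript of *CXCR4* (Sscrofa11.1, the RefSeq name of susScr11, chr15:15663652-15666706, plus strand, 2 exons, 1062 bases) ended at its stop codon, with 0 bases annotated after it. Of 19535 coding genes, 7% had no such bases, and the median was 828. The last 60 annotated bases (chr15:15666647-15666706) are shown because they form the annotated 3′ end, near which a 3′ library would be counted, with the stop codon in capitals:

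CXCR4: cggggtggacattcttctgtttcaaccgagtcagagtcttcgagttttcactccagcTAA

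The annotation held 184 bases after the stop for *PRDM14* (chr4:65273988-65295362), 237 for *DDX4* (chr16:34879701-34983701), 774 for *KIT* (chr8:41402334-41492306), 1726 for *PDPN* (chr6:73019063-73050000), 1894 for *DAZL* (chr13:3762896-3783848), 2399 for *PRDM1* (chr1:72309096-72335474) and 4390 for *KITLG* (chr5:94016992-94110219). *DAZL* is on the minus strand and the others are on the plus strand. The part of the annotated end in the low *CXCR4* counts was not tested.

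*POU5F1* and *TFAP2C* were detected together in 1977 cells of library 1 (26.8%) and 2547 of library 2 (31.2%), called double positive here. *PRDM1* was found in 66.6% and 64.8% of double positive cells against 40.6% and 41.1% of all others. *PRDM14* was found in 16.9% and 15.9% against 3.89% and 4.41%, and *KIT* in 84.2% and 82.6% against 59.9% and 61.2%. *DDX4* did not follow: it was found in 1.52% and 1.37% of double positive cells and in 1.45% and 1.33% of the others. Marked doublets were 210 of the 1977 and 272 of the 2547 double positive cells, against 434 of all 7369 and 535 of all 8175 cells. Double positive cells were deeper, with medians of 39673 and 36519 UMIs, and such shares rise with depth. With every gene read from thinned cells, *PRDM14* was found in 7.55% and 7.89% of double positive cells against 2.33% and 2.58% of the others, *PRDM1* in 28.3% and 31.1% against 20.8% and 21.6%, and *KIT* in 52.1% and 55.7% against 42.5% and 44.1%. The order of these 3 genes thus held, and *DDX4* was at 0% and 0.116% against 0.457% and 0.492%. *POU5F1*, *TFAP2C*, *PRDM1* and *KIT* were together in 1169 and 1449 cells, and with *PRDM14* in 224 and 253, of which 33 and 43 were marked as doublets. Of these last cells, 136 and 158 lay in cluster 5, which was led by *NTM*, *ERAS*, *DNMT3B*, *HESX1* and *PPP1R1B*.

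*SOX17*, the partner that defines the germ cell fate in pigs, was almost absent. It was found in 36 cells of library 1 (0.489%) and 38 of library 2 (0.465%), and with at least 2 UMIs in 15 and 9. Cells with *POU5F1*, *TFAP2C*, *SOX17* and *PRDM1* numbered 8 in each library, and all of them also held *KIT*. So did 1169 of 1316 and 1449 of 1651 cells with *POU5F1*, *TFAP2C* and *PRDM1*, whether or not they held *SOX17*. *DNMT3B* was under 100 CPM of the cell, the limit used below, in 7 and 5 of the 8 cells. It was under that limit in 1734 of 1977 and 2078 of 2547 double positive cells. Of the 8 cells in each library, none held *CXCR4* or *FOXA2*, and 4 and 1 were marked as doublets. All double positive cells held *CXCR4* in only 10 and 10 and *FOXA2* in 3 and 5, so 8 cells without them are not distinctive. *SOX2* was found in 4 and 8 of the 8 cells and *PRDM14* in 2 and 4. Among all double positive cells these were 1134 and 1540 for *SOX2* and 334 and 406 for *PRDM14*. The median depths of the 8 cells, 47667 and 56898 UMIs, exceeded those of all cells. With 2 UMIs required of each gene, or after thinning, the number was 0. Of the 15 and 9 cells with at least 2 *SOX17* UMIs, 8 and 7 lay in cluster 3, whose leading genes were *PDZK1IP1*, *FSTL5*, *PAX6*, *KCNAB1* and *GAD2*, and 4 and 4 of those held *PRDM1*. In library 1, 5 of the 15 lay in cluster 7, led by *MYL4*, *DCN* and *TNNT2*. Of these 5, 3 held *PRDM1*, 3 *PECAM1* and 2 *CDH5*, both listed here as endothelial markers, and 1 held *FOXA2*. Cluster 7 also held 3 of the 8 cells of library 1 with *POU5F1*, *TFAP2C*, *SOX17* and *PRDM1*.

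Double positive cells were then split by *DNMT3B*, with at least 100 CPM of the cell called high: 243 and 469 cells were high and 1734 and 2078 low. Among these, *PRDM14* fell and *KIT*, *KITLG* and *PRDM1* rose in the low cells, by edgeR's quasi-likelihood test on UMIs summed per library and class. In this comparison 4 of the 6 genes tested were called (3 higher, 1 lower), against 37.2% of all 17725 genes (18.8% higher, 18.4% lower). Their median log2 fold change was 0.46 against 0.01 for all genes, and *DAZL* and *CXCR4* were too low to test. *PRDM14* stood at 26.5 and 20.7 CPM in the high cells and 4.04 and 3.03 CPM in the low cells, with no overlap. Its log2 fold change was -2.67 (SE 0.19, adjusted p = 2.73e-06). The thinned share of cells with *PRDM14* gave the same order, 23.5% and 18.6% against 3.34% and 2.55%.

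*KIT* was at 80.2 and 80.4 CPM in the high cells and at 107 and 117 CPM in the low cells, a log2 fold change of 0.54 (SE 0.06, adjusted p = 7.85e-05). *KITLG* rose from 11.2 and 12.3 CPM to 18.2 and 17 CPM (0.64, SE 0.09, adjusted p = 0.000346). In CPM, receptor and ligand were both higher in the low cells, and neither pair of groups overlapped. The sizes moved with the gates: *KITLG* was at 0.25 with the limit at 50 CPM (adjusted p = 0.0349) and at 1.09 with it at 200 CPM (adjusted p = 7.75e-05), and *KIT* at 0.29 with gates on thinned UMIs (adjusted p = 0.0336). With those thinned gates the share of cells with *KIT* overlapped, at 52.6% and 51.2% in the high and 52% and 58.1% in the low cells. *PRDM1* was at 30.1 and 29.1 CPM in the high cells and 35.7 and 38.4 CPM in the low cells (0.39, SE 0.10, adjusted p = 0.00983), but gates set on thinned UMIs gave 0.22 (adjusted p = 0.144). *PDPN* was at 89.6 and 126 CPM in the high and 77.3 and 89 CPM in the low cells, groups that did not overlap but came within 1 CPM of each other (-0.33, interval -0.70 to 0.04, adjusted p = 0.15). With the library as a block, the *PDPN* difference was called (-0.32, adjusted p = 0.00219, where 47.3% of all genes were called), as it was with the limit at 50 CPM (-0.43, adjusted p = 0.0338). *DDX4* rested on 3 and 5 UMIs in the high cells and was not called (0.70, interval -0.34 to 1.74, adjusted p = 0.277).

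Both classes differed in more than *DNMT3B*. Of the high cells, 79.8% and 75.9% lay in cluster 5, while the low cells were spread, with 36% and 35.3% in cluster 1 (led by *FRMPD4* and *PADI2*, among named genes). *POU5F1* itself was at 354 and 401 CPM in the high and 95.2 and 102 CPM in the low cells, and the trophectoderm gene *GATA3* at 80.7 and 79.1 against 159 and 157 CPM. The part of this mix of cells in the differences above was not tested.

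**Figure D2:**
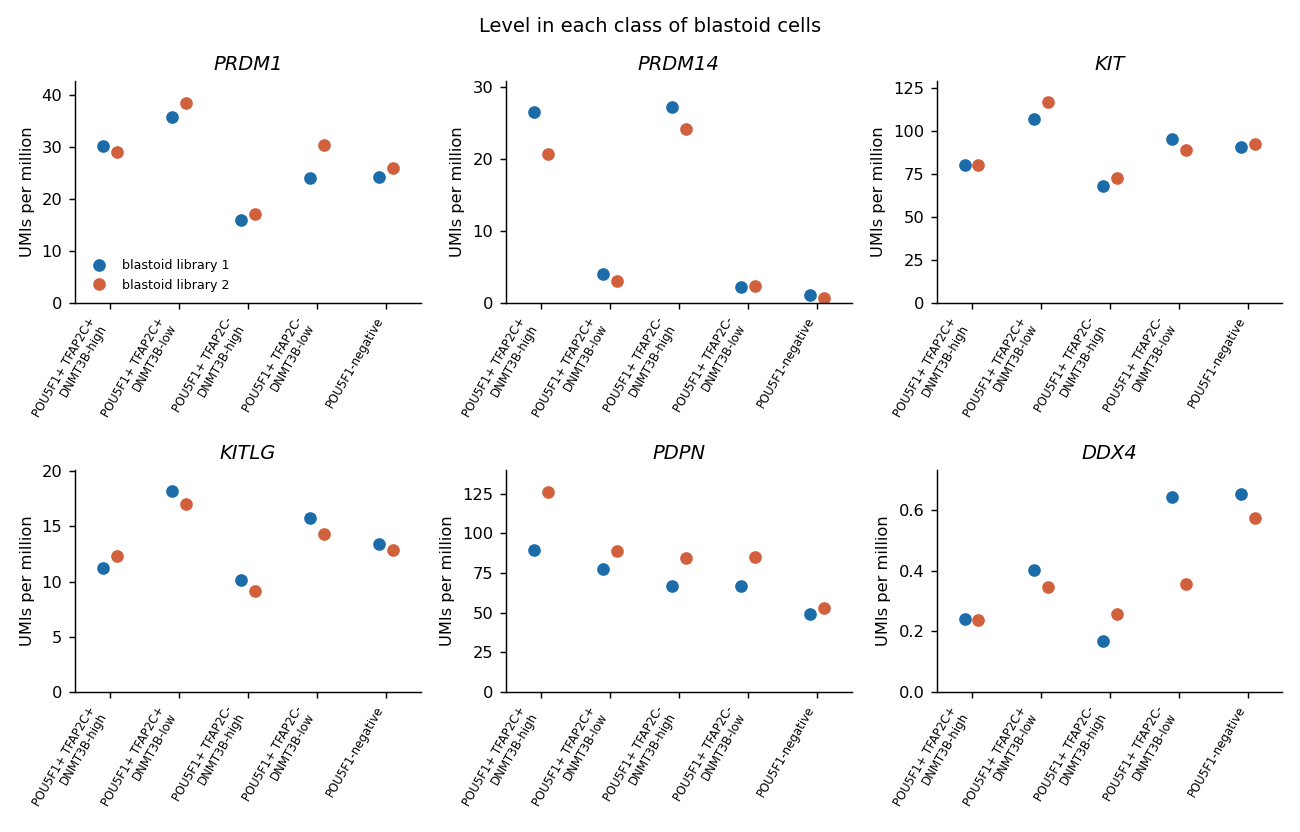
CPM of 6 genes (y axis, from 0) in the 5 classes of blastoid cells (x axis), 1 point per library. *PRDM14* is above 20 CPM in both DNMT3B-high classes and under 5 CPM elsewhere, whereas *KIT*, *KITLG* and *PRDM1* are highest in the double positive DNMT3B-low class.

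Against cells without *POU5F1*, 5 of 6 genes were higher in double positive DNMT3B-low cells, where 24.8% of all genes were called (11.2% higher). *PRDM14* rose most, from 1.1 and 0.679 CPM in the 4448 and 4217 *POU5F1*-negative cells to 4.04 and 3.03 CPM (log2 fold change 1.94, SE 0.21, adjusted p = 0.000119). *PDPN* went from 49.1 and 52.6 CPM to 77.3 and 89 CPM (0.68, SE 0.16, adjusted p = 0.0113). *PRDM1* went from 24.3 and 25.9 CPM to 35.7 and 38.4 CPM (0.53, SE 0.09, adjusted p = 0.00152). In all 3 genes, both libraries of one class lay above both of the other. *KITLG* rose from 13.4 and 12.9 CPM to 18.2 and 17 CPM (0.39, SE 0.08, adjusted p = 0.00495). *KIT* rose from 90.6 and 92.6 CPM to 107 and 117 CPM (0.25, SE 0.06, adjusted p = 0.0103), but that call was lost with at least 2 UMIs of both gate genes (0.17, adjusted p = 0.0806) and with thinned gates (0.16, adjusted p = 0.161). *DDX4* was the only gene with the opposite sign, at 0.655 and 0.575 CPM in *POU5F1*-negative and 0.402 and 0.347 CPM in double positive DNMT3B-low cells (-0.75, interval -1.36 to -0.13, adjusted p = 0.0737), and it was called with the library as a block (-0.74, adjusted p = 0.0296, against 42.4% of all genes, 21.7% lower). Median depths were 26275 and 23826 UMIs in the negative cells against 38737 and 35599.5 in the double positive DNMT3B-low cells. The negative cells were not gated on *TFAP2C*, which 45.6% and 42.8% of them held. Cluster 0 held 25% and 21.1% of the negative cells against 9.28% and 9.19% of the double positive DNMT3B-low cells. For cluster 7 the shares were 16.4% and 12.4% against 4.04% and 1.73%, and for cluster 1 6.12% and 5.79% against 36% and 35.3%. Cluster 5, where *PRDM14* was highest (mean 24.2 CPM), held 0.764% and 1.35% of the negative cells. It held 9.75% and 9.58% of the double positive DNMT3B-low cells. The part of this mix of cells in these differences was not tested.

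**Figure D3:**
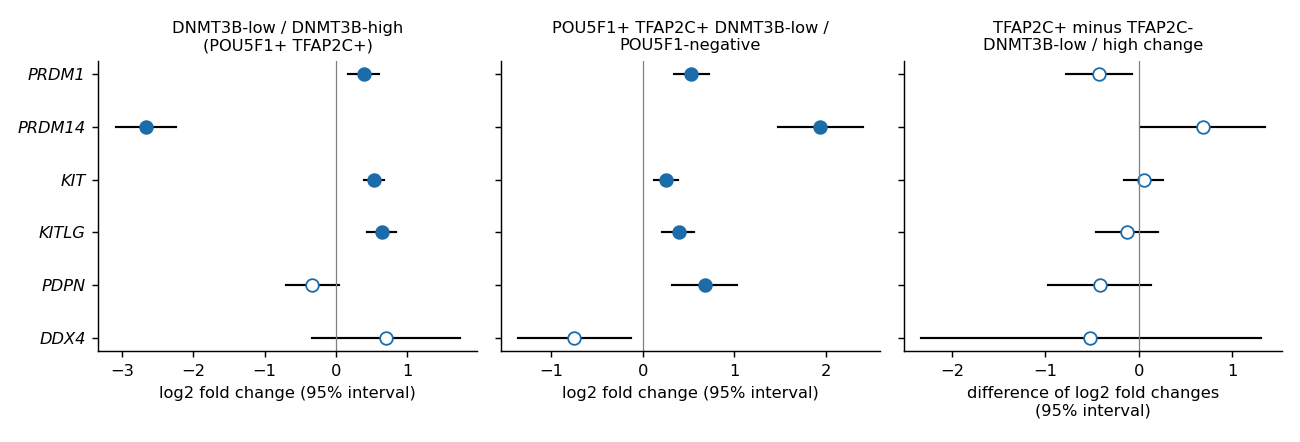
Log2 fold changes with 95% intervals (x axis) of 6 genes (y axis). The panels show DNMT3B-low against DNMT3B-high double positive cells, then double positive DNMT3B-low against POU5F1-negative cells. The third shows how the first comparison differs between cells with and without a TFAP2C UMI. Filled points passed an adjusted p of 0.05. *PRDM14* lies left of 0 in the first panel and right of 0 in the second, and no point is filled in the third.

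Whether the DNMT3B comparison depended on *TFAP2C* was tested against *POU5F1*-positive cells that lacked a *TFAP2C* UMI (146 and 335 high, 798 and 1076 low). These cells were shallower, with medians of 38947.5 and 33456 UMIs (high) and 28844 and 25879 UMIs (low). Double positive cells had medians of 46520 and 40743 UMIs (high) and 38737 and 35599.5 UMIs (low). Detection of a UMI follows depth, so this split is not one of *TFAP2C* level alone. None of the 6 genes was called, by edgeR or by DESeq2, against 0.795% of all genes by edgeR, and 2 had an unadjusted p under 0.05. These were *PRDM1*, whose difference of log2 fold changes was -0.43 (interval -0.78 to -0.07, adjusted p = 0.283), and *PRDM14* at 0.69 (0.02 to 1.35, adjusted p = 0.366). In cells without *TFAP2C*, *PRDM1* was at 16 and 17.2 CPM when *DNMT3B* was high, and at 24.1 and 30.3 CPM when it was low. *PRDM14* was at 27.2 and 24.2 CPM in the former and 2.22 and 2.4 CPM in the latter. With the library as a block, *PDPN* alone was called (-0.42, adjusted p = 0.0489, against 4.89% of all genes, 1.42% higher and 3.47% lower).

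Across finer bins of *DNMT3B*, the level of *PRDM14* in double positive cells went from 2.25 and 1.66 CPM in cells with no *DNMT3B* UMI to 38 and 27 CPM from 400 CPM upwards. *PRDM1* ran the other way at the far end, with 37.2 and 39.3 CPM without *DNMT3B* and 22.6 and 23.8 CPM from 400 CPM. *KITLG* stayed between 15.3 and 22.7 CPM up to 200 CPM and was at 6.93 to 9.89 CPM beyond. *KIT* was highest without *DNMT3B* (117 and 123 CPM), lowest between 100 and 200 CPM (71.6 to 79.6 CPM) and at 90.1 and 84.3 CPM from 400 CPM. Around the limit itself *PRDM14* showed no step: cells just below it, from 80 CPM (59 and 87 cells), held *PRDM14* at 11.9 and 9.75 CPM, and those in the narrow bin just above it (42 and 71 cells) at 10.3 and 12.7 CPM. *KIT* was lower above the limit, at 81.4 and 82.2 CPM just below it and 73.9 and 72 CPM just above it, and *PDPN* was higher above it, at 101 and 106 CPM against 127 and 132 CPM. Over all bins, *PDPN* had no steady course, with 67.2 and 81.9 CPM without *DNMT3B*, peaks of 130 and 159 CPM in different bins, and 86.8 and 86 CPM from 400 CPM of *DNMT3B*.

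**Figure D4:**
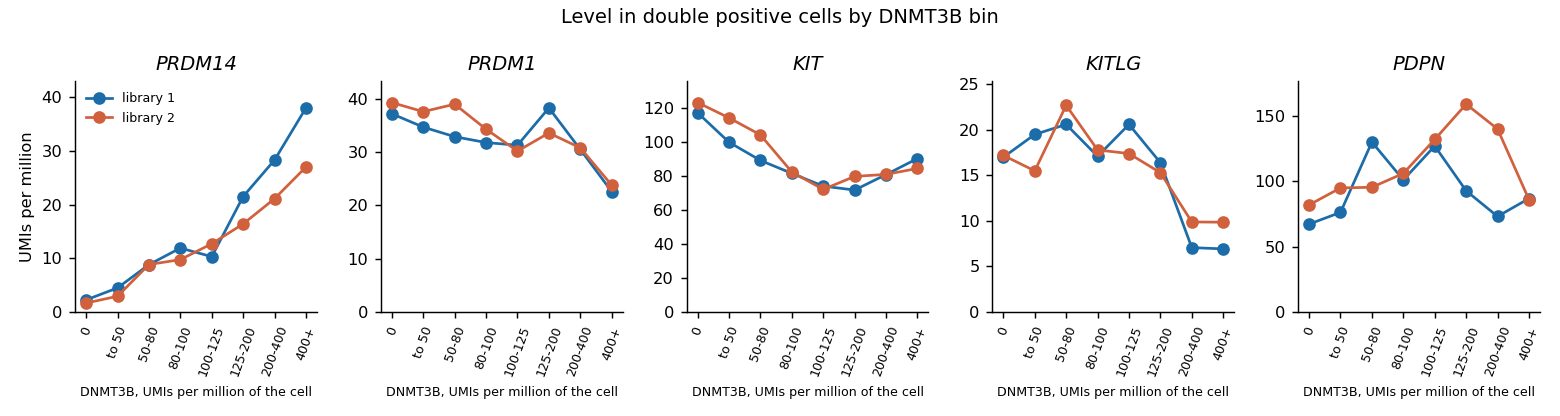
CPM of 5 genes (y axis, from 0) in double positive cells binned by their own *DNMT3B* level (x axis, CPM of the cell), 1 line per library. *PRDM14* is highest in the last bin, at 38 and 27 CPM, *PRDM1* and *KITLG* are lowest from 400 CPM, and *KIT* dips in the middle bins.

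The genes were not highest in the same cells. Among 12 clusters, built without these genes or the gate genes, *PRDM14*, *PRDM1*, *KIT* and *PDPN* each had a different highest cluster, and levels below are means of both libraries. *PRDM14* peaked in cluster 5, at 24.2 ± 2.47 CPM (SD, n = 2), and the next cluster held 3.57 ± 1.65. *PRDM1* was highest in cluster 1 at 44 ± 2.97 CPM, above cluster 2 at 34.6 ± 0.99, and lowest in cluster 10 at 6.62 ± 0.297. *KIT* was highest in cluster 3 at 176 ± 10.6 CPM, whose libraries lay above those of cluster 1 at 136 ± 3.54, and lowest in cluster 0 at 32.4 ± 0.495. *KITLG* showed 21.5 ± 1.13 CPM in cluster 8 and 20.8 ± 2.47 in cluster 4, which overlapped and could not be ordered, and only 6.69 ± 0.856 in the *KIT*-rich cluster 3. *PDPN* was highest in cluster 4, at 194 ± 50.2 CPM against 74 ± 8.77 in the next. Cluster 4 was led by *DEFB1*, *DPPA5*, *FXYD4* and *IFI44L*, and cluster 8 by *ALK*, *SIX6*, *CDH6* and *CRABP1*.

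The scarce genes lay elsewhere. *DDX4* reached 1.93 ± 0.113 CPM in cluster 8 (17 and 24 UMIs), against 0.175 ± 0.0813 CPM in the *PRDM14*-rich cluster 5 (3 and 9 UMIs). Clusters 9 and 10 held it at 2.45 ± 0.792 and 2.66 ± 0.134 CPM, on 3 to 5 UMIs a library. *CXCR4* was at 2.2 ± 0.516 CPM in cluster 10, where it rested on 2 and 3 UMIs in 40 and 42 cells, and at 0.216 CPM or less in every other cluster. Cluster 10 also held *SOX10* at 120 ± 23.3 CPM, a gene of the neural crest. *DAZL* was at 0 in all 12 clusters.

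**Figure D5:**
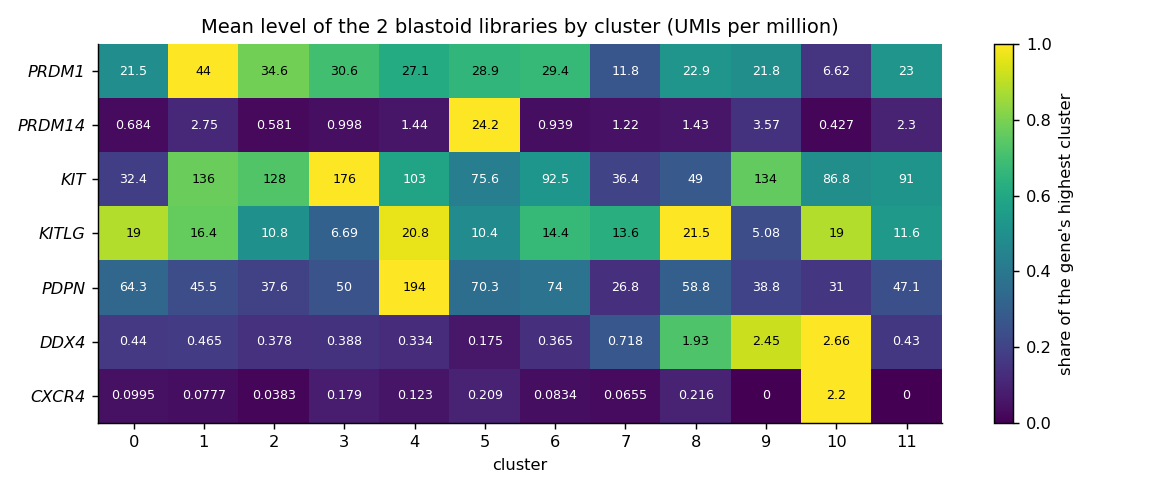
Mean CPM of both blastoid libraries for 7 genes (rows) in the 12 clusters (columns), coloured by the share of the gene's highest cluster. *PRDM14* is bright in cluster 5 alone. *PRDM1* is brightest in cluster 1, *KIT* in cluster 3 and *PDPN* in cluster 4, so no cluster is the highest for all of them. *PRDM1* and *KIT* are also bright in other clusters.

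The genes whose levels most resembled each member over the 24 sums of cluster and library were found by Pearson's r of log2(CPM + 1) among 14642 genes. For *PRDM14* they were *KIF5A* (r = 0.892), *CDKL2* (0.888) and *ERAS* (0.883), and *POU5F1* reached 0.784. For *PRDM1* they were *SH3GLB2* (0.945), *KCNJ3* (0.944) and *CMTM8* (0.94), and *TFAP2C* reached 0.723. *KIT* was most like *CSK* (0.857), *RABEPK* (0.857) and *IPO8* (0.836), *KITLG* most like *CD164* (0.904), *SEC14L1* (0.866) and *MSX2* (0.848), and *PDPN* most like *CLN8* (0.893), *IRF7* (0.877) and *MKKS* (0.871). *KIT* and *KITLG* had r = -0.526, and *PRDM1* and *PRDM14* 0.292. Sums of the same library share their preparation, and sums of one cluster share their cell type, so these are descriptions.

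Other genes of the germ cell programme were followed as an early and a late set, with the ligands and the methylation enzymes. Of 18 genes listed here as early germ cell genes, 14 reached 1 FPKM in all pESC libraries, against 37% of all genes. The 14 include *POU5F1*, *SOX2*, *NANOG* and *UTF1*, genes of pluripotent cells, and the paper uses *SOX2* to mark the epiblast. Counts of this list, here and below, are therefore no measure of germ cell identity. Of 18 late genes only 1 did, *TDRD12* (5.58, 6.59 and 7.18 FPKM), while 6 were listed at 0 in all 3 libraries. In the DNMT3B comparison, the early list (16 genes besides the gate genes, 15 tested) had 0 higher and 6 lower genes, where 18.8% of all genes were higher and 18.4% lower, with a median log2 fold change of -0.38 against 0.01 for all genes. These shares of all genes (37.2% in either direction) are the background for the other lists too. The 6 lower early genes included *NANOG* (-3.01, adjusted p = 7.39e-06), *SOX2* (-1.66, adjusted p = 1.14e-05) and *UTF1* (-1.48, adjusted p = 2.7e-07), which are genes of pluripotent cells. *SOX17* was not called (0.46, interval -1.90 to 2.82). Of the 8 genes for ligands and niche factors, *KITLG* among them, 4 were higher (with *BMP2*, *BMP4* and *CXCL12*) and 1 lower (*WNT3*), a median of 0.45. *CXCL12*, the ligand of CXCR4, rose by 1.46 (SE 0.09, adjusted p = 1.33e-06) from 57.8 and 61.5 CPM to 150 and 165 CPM. By cluster, its mean was highest in cluster 3 (232 CPM). It was 192 CPM in cluster 1, which held 36% and 35.3% of the low cells. In cluster 5, which held 79.8% and 75.9% of the high cells, it was 60.8 CPM. The part of this mix in the rise was not tested. Of 7 genes for DNA methylation (median -0.13), 2 were higher (*TET2*, *TET3*) and 3 lower (*DNMT3A*, *DNMT3L*, *TET1*). Of 8 late genes tested (median 0.03), 0 were higher and 1, *TDRD12*, was lower (-1.20, adjusted p = 7.64e-05).

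Against *POU5F1*-negative cells, 7 of 15 early genes were higher and 2 lower (*SOX17* and *ITGA6*), with a median of 0.17, where 11.2% of all genes were higher and 13.6% lower. *SOX2* was among the 7. *DPPA3*, a gene of oocytes, naive pluripotent cells and germ cells, rose most (log2 fold change 3.78, SE 0.43, adjusted p = 0.000157), followed by *UTF1* (2.43, adjusted p = 3.88e-08) and *NANOG* (2.11, adjusted p = 0.00059). *SOX17* was lower (-1.92, SE 0.53, adjusted p = 0.0235), but on few UMIs, 19 and 7 in the double positive DNMT3B-low cells and 98 and 49 in the negative cells. The share of cells with *SOX17* was 0.404% and 0.337% in the former and 0.517% and 0.522% in the latter, with overlapping intervals, and 1 cell of cluster 3 alone held 19 UMIs. Of the 8 late genes tested, 0 were called in either direction by edgeR or DESeq2, and 0 had an unadjusted p under 0.05. *CXCL12* rose (0.57, adjusted p = 0.000928), as did *KITLG*, so that 2 of 8 ligand genes were higher, with 1, *BMP4*, lower, and 1 of 7 methylation genes, *TET1*, was higher. In the test of *TFAP2C*, *BMP4* alone of these lists was called (-1.38, adjusted p = 0.0442), against 0.795% of all genes.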

How the data were processed

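The authors counted UMIs with Cell Ranger 7.1.0 on susScr11 and deposited raw UMI counts for every barcode. The authors mapped the pESC reads with HISAT2 2.2.1 after Trim Galore 0.6.4 and deposited FPKM per transcript from StringTie 2.2.1. These were summed here per gene symbol. The 3 FPKM columns could not be tied to single pESC samples and served as replicates of 1 group. The genes, lists and tests were chosen with earlier results of these data known.

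Cells were barcodes with at least 1/10 of the UMIs of the barcode ranked at 1% of the cells kept, a rule solved for its own cell number. Clusters came from Seurat 5.3.0 (resolution 0.15), with the members and gate genes left out. UMIs summed per library and class (10 sums) were fitted in edgeR 4.0.16 (TMM, filterByExpr, quasi-likelihood, Benjamini-Hochberg over all genes, threshold 0.05). The code was also run on simulated sums, which had no pairing by library, so that run does not test the fit on these data. Gate genes stayed in the fit, but their tests are not used and they are left out of all counts of calls. DESeq2 1.42.0 and other gates served as alternatives. Class sums of 1 library come from the same cell suspension, which pairs them. Their deviations from the class means correlated at 0.0597 to 0.423 over 10 pairs of classes. The fit with library as a block is printed where it changes a call.

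Named genes were the members, gate genes, *SOX17*, *CXCL12*, at most 4 called genes of the lists per comparison with the largest changes, the 3 genes most like each member, and up to 5 leading genes per cluster. Other named genes were chosen after their values were seen. Where a gene is listed at 0 in FPKM, no fold is given.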

Additional observations from a re-analysis of the deposited data

Results flagged for a closer look

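*KIT* and *PDPN* were seen in barcodes that no comparison used, those from 1000 UMIs up to the limit for a cell (3108 in library 1 and 3661 in library 2). *KIT* was at 86.6 and 66.4 CPM there, against 48.2 and 49.5 CPM in empty droplets. *PDPN* was at 53.2 and 61.8 CPM, against 27.4 and 43.9 CPM in empty droplets. In both libraries the exact Poisson intervals of the 2 kinds of barcode did not overlap for these genes. *CXCR4* was at 0.916 and 2.09 CPM in those barcodes and 0.13 and 0.106 CPM in cells, on 11 and 27 UMIs.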

How the results depend on the processing

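Under other settings the members had 198 single-gene values in the 3 comparisons. Of these, 185 kept their side of the threshold (or lay within 1 SE where there was no test). A call was lost in 3 and gained in 4, and 6 values without a test moved by more than 1 SE. By DNMT3B, these were *KITLG*, at 0.51 without library 1 and 0.80 without library 2, and *PDPN*, at -0.12 without library 2. None of the called values changed sign, but some uncalled ones did and are counted among the 185. In the test of *TFAP2C*, *DDX4* was at -0.52, and at 1.25 with at least 2 UMIs of both gate genes. With library as a replicate block, the members called were 5 by DNMT3B, 6 against *POU5F1*-negative cells and 1 (*PDPN*) in the test of *TFAP2C*. The genes called overall were then 8392, 7510 and 866, against 6599, 4389 and 141. Genes called by DNMT3B were 4119 with at least 2 UMIs of both gate genes and 3031 with gates on thinned UMIs. In the test of *TFAP2C*, 374 genes were called by DESeq2, 360 with no filter on low counts, 572 with at least 2 UMIs, 418 and 41 with the *DNMT3B* limit at 50 and 200 CPM, and 0 with gates on thinned UMIs (edgeR, 1423 at an unadjusted p under 0.05, against 2327 with all UMIs). The cause of these shifts was not tested. Double positive cells were 29% of cells on average, 13.5% with at least 2 UMIs and 9.23% after thinning. Cells with *POU5F1*, *TFAP2C*, *SOX17* and *PRDM1* were 16 in all, 11 without doublets, 0 with at least 2 UMIs, 0 after thinning, and 8 to 8 with 1 library left out, by construction. The fits that left out 1 library had no residual degrees of freedom and gave values with no test. At resolution 0.3 the highest *KITLG* cluster was at 30 CPM and drew more of its cells from cluster 4, where *PDPN* was highest, than from any other. The values of *DDX4*, *CXCR4* and *SOX17* rest on few UMIs, and the part of depth in this was not tested.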

Other observations

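*T*, a gene of the primitive streak, was at 40.6 FPKM in the pESC library PAP25 against 4.41 and 3.09 in IVFP25 and PA_4P7, and *BMP4*, a signal that induces germ cells, at 9.25 against 1.45 and 0.688. Both were chosen after their values were seen. *NANOG* was lowest in PAP25, at 12.9 FPKM against 25.7 and 41.9. *TFAP2C*, *SOX15* and *UTF1* were lowest there too, at 3.61, 8.91 and 39.2 FPKM.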
